A study of Mus musculus with 4 samples.

Results

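Cardiac and atrial muscle genes were followed across 4 arrays of mouse embryonic trachea. The set holds 10 genes of 18193 with a probe set of their own on the array: Myh6, Myl7, Myl4, Tnni3, Mybpc3, Sln, Nppa, Nppb, Nkx2-5 and Gata4. Each gene is read from its probe set of highest average log2(signal + 16) over all 4 arrays, with no filter on level. The members were also picked knowing that their signals differ between arrays of the same genotype, so those signals and their differences between arrays are given as a description, without a test.

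The heart beats through sarcomeres built from cardiac forms of myosin, troponin and their binding proteins. Atrial muscle uses its own myosin light chains and secretes natriuretic peptides, hormones that promote salt and water loss. The transcription factors NKX2-5 and GATA4 bind together at the promoters of several of these genes. In the embryonic neck and chest the trachea lies close to the heart and its great vessels, and in mice cardiac muscle also extends along the pulmonary veins. Myl4 and Sln are also made by embryonic skeletal muscle in mice, so the set mixes genes largely restricted to the heart with genes shared with other striated muscle.

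The samples were tracheas of C57BL/6 embryos at embryonic day 16, of which 2 were labelled a1H knockout and 2 wild type, each pair numbered 1 and 2. The series text speaks of homozygous embryos. The name a1H is read as the alpha-1H pore subunit of a T-type calcium channel, encoded by Cacna1h, and the comparison asks which transcripts differ when it is lost. The sources used here give neither the allele nor the litters nor any pooling of embryos. Whether the arrays of a genotype are independent biological samples is thus not known. Cacna1h read 981 and 631 on the labelled knockout arrays, against 630 and 538 on the wild-type arrays, so its probe set did not check the labels, since the deleted part and the probe positions were not known here. Signals are MAS5 intensities, a summary of the probes of each probe set, and the arrays had nearly the same trimmed mean. Their median signals were less alike, at 426 and 320 on labelled knockout arrays 1 and 2, against 459 and 416 on wild-type arrays 1 and 2. Only 2 arrays per genotype limit the precision, and no detection calls were used, so each signal is also set among the 45037 non-control probe sets of its array as a percentile. Genes of tracheal cartilage, such as the collagen genes Col2a1 and Col9a1, were bright on every array, with list medians between the 92.2nd and 95.7th percentile.

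Before the members, a feature of the arrays themselves matters. The geometric mean signal of 18 spiked hybridisation controls was 5449 and 16126 on labelled knockout arrays 1 and 2, against 5518 and 13082 on wild-type arrays 1 and 2. Same-numbered arrays thus resembled each other in these controls, and whether the number marks a batch is not stated. Marker genes of neighbouring or distant organs also differed between arrays of the same genotype. All 8 measured placental genes were bright on labelled knockout array 2, where their summed signal was 167938, against 701 on labelled knockout array 1 and 993 and 1131 on the wild-type arrays. Signals of the cardiac genes are given array by array ahead of pooled values.

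Most members had their highest signal on labelled knockout array 1 and their lowest on labelled knockout array 2, with the wild-type arrays between them. For 7 of the 10 genes (Myh6, Myl7, Tnni3, Mybpc3, Nppa, Nppb and Gata4) the order from high to low was labelled knockout array 1, wild-type array 1, wild-type array 2, labelled knockout array 2. Of all 18193 genes, 6.72% had this order. Nkx2-5 was also highest on labelled knockout array 1 and lowest on labelled knockout array 2, while Myl4 and Sln were bright on all 4 arrays and highest on labelled knockout array 2. With 1 array at each level, no spread stands behind a step between neighbours in these orders. In bulk RNA, fewer heart muscle cells and less RNA per cell cannot be told apart.

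**Figure D1:**
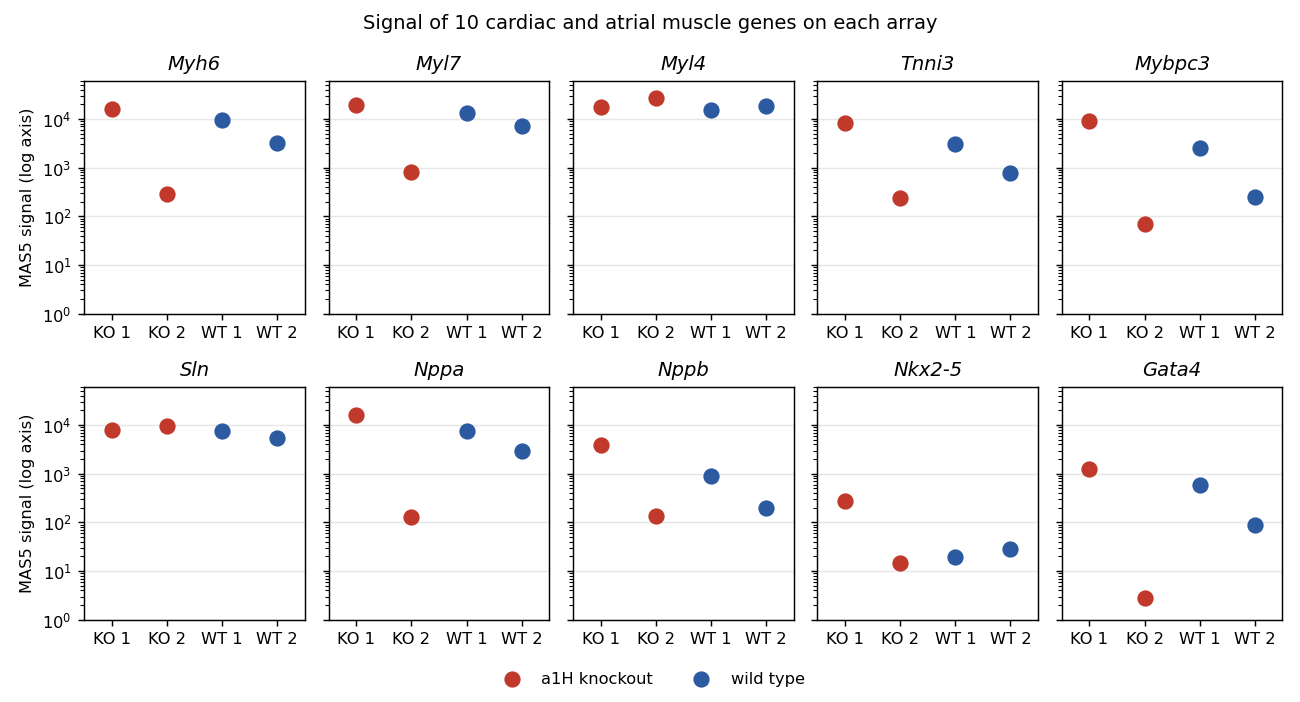
Signal of each gene on the 4 arrays, on a log axis, 1 point per array (red: a1H knockout, blue: wild type). Myh6 spans 294 to 16214 between the 2 labelled knockout arrays, whereas Myl4 stays between 15097 and 27424 on all 4.

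Myh6 encodes the alpha myosin heavy chain, the motor of atrial muscle and of the adult mouse ventricle. It read 16214 and 294 on labelled knockout arrays 1 and 2, against 9554 and 3202 on wild-type arrays 1 and 2. The labelled knockout signals lay on both sides of the wild-type ones, at the 99.0th and the 48.6th percentile of their arrays. The 55.2-fold gap between the labelled knockout arrays was wider than the 2.98-fold gap between the wild-type arrays. A second Myh6 probe set was dimmer and kept the order, with 1193 and 8.55 in the labelled knockout, against 628 and 206 in wild type.

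Probe sets shared by Myh6 and Myh7 are annotated to both genes and were not used for either. Myh7 encodes the beta heavy chain, which slow skeletal muscle makes as well as the embryonic ventricle. The brighter shared probe set read 10492 and 1860 in the labelled knockout, against 5697 and 2524 in wild type. Its log2 difference between the labelled knockout arrays, array 2 minus array 1, was -2.49, smaller than the -5.71 of the Myh6 probe set. The dimmer shared probe set had -5.86.

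Myl7, the regulatory myosin light chain of the atrium, read 19247 and 828 in the labelled knockout, against 13358 and 7225 in wild type. It lay at the 99.6th percentile of labelled knockout array 1 and at the 64.4th of labelled knockout array 2. The gap was 23.2-fold between the labelled knockout arrays and 1.85-fold between the wild-type arrays. Among the 8 genes low on labelled knockout array 2, its gap in wild type was the narrowest apart from Nkx2-5, which ran the other way there.

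Myl4, the essential light chain of the atrium and of embryonic skeletal muscle, behaved differently from Myl7. It read 17289 and 27424 in the labelled knockout, against 15097 and 18600 in wild type, between the 98.7th and 99.4th percentile of the arrays. Array 2 was the brighter within both genotypes, and the genotypes overlapped. A second Myl4 probe set was dim, with 241 and 116 in the labelled knockout, against 248 and 130 in wild type, and ran the other way, array 1 above array 2 in both genotypes.

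Tnni3 encodes cardiac troponin I, the inhibitory subunit of the thin filament. Its signals were 8149 and 234 in the labelled knockout, against 3053 and 784 in wild type. Mybpc3 encodes cardiac myosin-binding protein C, which tethers and restrains myosin heads. It read 9223 and 68.2 in the labelled knockout, against 2482 and 244 in wild type. Both genes kept the order of Myh6, and Mybpc3 had the widest gap in wild type of the 10 genes, 10.2-fold, beside 135-fold in the labelled knockout.

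Sln encodes sarcolipin, a small membrane protein that slows the calcium pump of the sarcoplasmic reticulum in atrial and skeletal muscle. It read 7960 and 9462 in the labelled knockout, against 7440 and 5362 in wild type, so both labelled knockout arrays were above both wild-type arrays. It was the only member without overlap between genotypes in that direction, which 16.8% of all genes showed, and no member was without overlap in the other direction, which 19.1% showed. A dimmer Sln probe set read 305 and 269 in the labelled knockout, against 305 and 260 in wild type.

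Nppa encodes the precursor of atrial natriuretic peptide. It read 15926 and 131 in the labelled knockout, against 7728 and 2974 in wild type. The labelled knockout arrays again enclosed the wild-type arrays, with a gap of 121-fold against 2.60-fold in wild type. Nppb encodes the precursor of B-type natriuretic peptide, which the ventricle makes as well. It read 3959 and 135 in the labelled knockout, against 887 and 198 in wild type. The lowest 2 Nppb signals, 1 from each genotype, lay close together, at the 35.7th and 36.8th percentile of their arrays.

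Nkx2-5 encodes a homeobox factor of the earliest heart muscle precursors. It read 281 and 14.8 in the labelled knockout, against 19.1 and 28.5 in wild type. It lay at the 43.3rd percentile of labelled knockout array 1 and at or below the 10.1th of the other arrays. Gata4 encodes a zinc finger factor of heart muscle that foregut endoderm and other mesoderm also make. It read 1248 and 2.75 in the labelled knockout, against 576 and 87.8 in wild type. Its percentiles on the labelled knockout arrays were 67.9 and 1.44. A second Gata4 probe set read 150 and 52.1 in the labelled knockout, against 64.8 and 79.7 in wild type, so it too was highest on labelled knockout array 1 and lowest on labelled knockout array 2. Both factors lay below the array median in mean level, where MAS5 signals are noisy.

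Promoters are shown for the members with the array order of Myh6, where one was at hand, and for Myl4, which has another order. RefSeq promoters of assembly GRCm38.p6, from 250 bases before to 50 after the annotated start, were at hand for 8 of the 10 genes, not for Sln and Gata4. Capitals mark matches, on either strand, to AAGTG (the core bound by NKX2-5), GATAA (GATA factors), AGGTGT (T-box factors), CATTCC (the M-CAT element of TEAD factors), TATAAA (the TATA box), the CArG box of SRF and the MEF2 site.
Myh6, chr14:54966558-54966857, minus strand: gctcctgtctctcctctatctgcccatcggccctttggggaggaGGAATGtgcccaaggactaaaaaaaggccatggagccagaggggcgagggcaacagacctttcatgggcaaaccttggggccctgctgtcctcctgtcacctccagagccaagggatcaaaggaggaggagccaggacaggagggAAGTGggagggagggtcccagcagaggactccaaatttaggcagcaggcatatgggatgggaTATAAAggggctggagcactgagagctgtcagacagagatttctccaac
Tnni3, chr7:4522479-4522778, minus strand: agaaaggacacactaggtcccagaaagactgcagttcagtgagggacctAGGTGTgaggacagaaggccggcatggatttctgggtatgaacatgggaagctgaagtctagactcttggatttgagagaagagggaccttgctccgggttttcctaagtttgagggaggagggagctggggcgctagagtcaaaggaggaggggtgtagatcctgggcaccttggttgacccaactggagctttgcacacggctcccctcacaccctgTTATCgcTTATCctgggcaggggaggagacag
Nppa, chr4:148000472-148000771, plus strand: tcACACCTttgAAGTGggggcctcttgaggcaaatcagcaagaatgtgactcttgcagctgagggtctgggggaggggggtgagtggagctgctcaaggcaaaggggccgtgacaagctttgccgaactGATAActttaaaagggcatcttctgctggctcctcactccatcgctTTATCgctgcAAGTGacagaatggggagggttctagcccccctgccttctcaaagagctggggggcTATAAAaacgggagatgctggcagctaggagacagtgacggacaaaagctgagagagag
Nppb, chr4:147985650-147985949, plus strand: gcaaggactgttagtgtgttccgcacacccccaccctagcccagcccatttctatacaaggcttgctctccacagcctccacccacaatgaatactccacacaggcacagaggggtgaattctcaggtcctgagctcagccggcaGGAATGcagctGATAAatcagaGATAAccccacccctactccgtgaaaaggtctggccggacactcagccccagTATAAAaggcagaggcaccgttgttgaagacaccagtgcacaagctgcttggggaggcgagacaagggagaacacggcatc
Myl7, chr11:5898733-5899032, minus strand: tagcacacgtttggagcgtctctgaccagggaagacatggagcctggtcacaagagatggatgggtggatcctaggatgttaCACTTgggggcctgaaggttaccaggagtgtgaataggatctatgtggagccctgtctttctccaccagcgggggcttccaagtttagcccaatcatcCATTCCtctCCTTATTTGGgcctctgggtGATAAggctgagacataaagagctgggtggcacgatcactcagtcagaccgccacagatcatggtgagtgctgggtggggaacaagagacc
Mybpc3, chr2:91117894-91118193, plus strand: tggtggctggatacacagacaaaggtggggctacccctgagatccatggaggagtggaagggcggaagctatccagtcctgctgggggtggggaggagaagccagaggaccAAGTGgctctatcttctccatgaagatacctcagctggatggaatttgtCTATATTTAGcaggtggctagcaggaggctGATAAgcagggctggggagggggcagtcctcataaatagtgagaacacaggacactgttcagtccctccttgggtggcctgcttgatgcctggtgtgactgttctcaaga
Myl4, chr11:104550413-104550712, plus strand: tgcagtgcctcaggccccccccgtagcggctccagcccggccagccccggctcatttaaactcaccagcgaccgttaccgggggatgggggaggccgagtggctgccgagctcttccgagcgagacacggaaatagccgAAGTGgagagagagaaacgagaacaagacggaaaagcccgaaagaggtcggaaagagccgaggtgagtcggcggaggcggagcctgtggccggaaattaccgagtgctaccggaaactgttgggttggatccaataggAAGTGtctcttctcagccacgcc
Nppa and Nppb are neighbours on chromosome 4. Each holds 2 matches to the GATA core and 1 to TATAAA, and Nppa also has 2 matches to the NKX2-5 core and 1 to the T-box core. Myl7 holds matches to the NKX2-5, GATA and M-CAT cores and a CArG box. Mybpc3 holds the NKX2-5 and GATA cores and a MEF2 site. Myh6 holds the NKX2-5 and M-CAT cores and TATAAA but no GATA core. Tnni3 holds 2 GATA cores and a T-box core but no NKX2-5 core. Some matches were not upstream: relative to the annotated start, TATAAA began at base 1 in Myh6, and the GATA cores of Tnni3 at 18 and 25. In Nppa, TATAAA began at -9 and in Nppb at -31. In the Myl4 window only the NKX2-5 core was found, at 2 places. No matches to different motifs overlapped in these windows.

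Across the 8 promoters, AAGTG was present in 5 (Myh6, Myl7, Myl4, Mybpc3 and Nppa) and in 46.4% of all 32851 RefSeq promoters. GATAA was present in 5 (Myl7, Tnni3, Mybpc3, Nppa and Nppb) and in 25.4% of all promoters. CATTCC was found in 3 and in 14.7% of all, TATAAA in 3 and in 13.6% of all, and AGGTGT in 2 and in 13.7% of all. The CArG box stood in 1 member and 1.63% of all promoters, and the MEF2 site in 1 and 0.557%. None of these motifs was found in the Nkx2-5 window. Such matches describe the letters of these windows and are not binding sites.

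Differences between the arrays of a genotype placed most of the set at the low end of the whole array. Taking labelled knockout array 2 minus array 1, the median log2 difference of the 10 genes was -4.87, against -0.05 for all genes, and 8 of 10 were at least 2-fold lower, as were 7.53% of all genes. Mybpc3 was at -6.78, Nppa at -6.76 and Gata4 at -6.08, while Sln was at 0.25 and Myl4 at 0.67. Without detection calls it is not known which signals on labelled knockout array 2 exceed background, such as 2.75 for Gata4 and 68.2 for Mybpc3, so the size and rank of these gaps are uncertain. No member was at least 2-fold higher, as 4.85% of all genes were. The 8 lower genes were among the 24 lowest of 18193, a cut placed at the rank of the last of them, Nkx2-5, and so set by the members. In wild type, array 2 minus array 1, the median was -1.47 against -0.08 for all genes. There 6 of 10 were at least 2-fold lower, as were 4.70% of all genes, and Mybpc3 was lowest at -3.26, while 0 were at least 2-fold higher, as were 3.78% of all. Being 2-fold lower on array 2 in both genotypes held for 6 members (Myh6, Tnni3, Mybpc3, Nppa, Nppb and Gata4) and 0.978% of all genes. The members were chosen knowing these signals, so the counts describe the set.

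**Figure D2:**
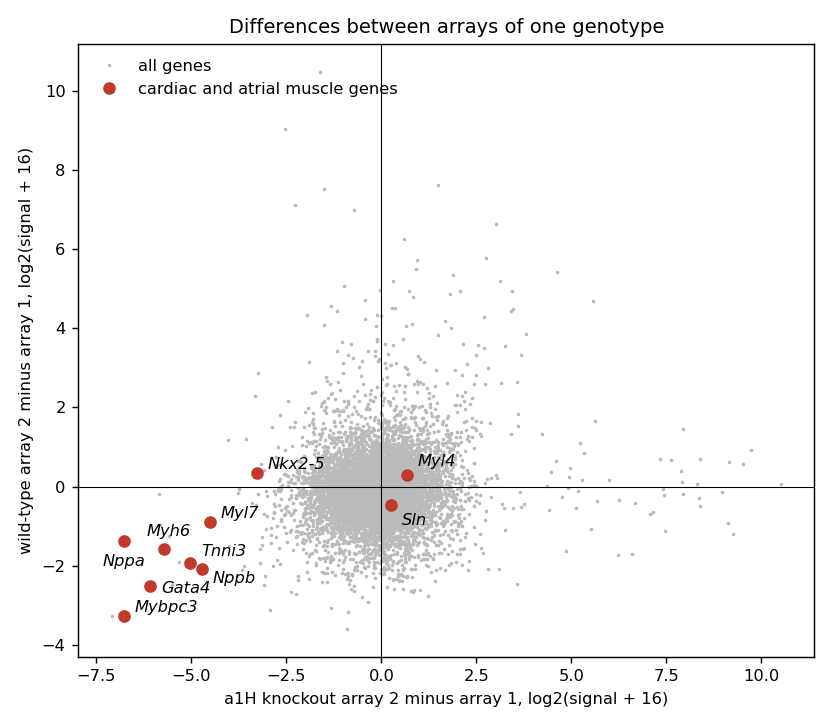
Each point is a gene, with the a1H knockout difference (array 2 minus array 1) on the horizontal axis and the wild-type difference on the vertical axis, both in log2(signal + 16). Myh6, Myl7, Tnni3, Mybpc3, Nppa, Nppb and Gata4 lie to the lower left, Nkx2-5 lies to the left alone, and Myl4 and Sln sit within the cloud of all genes.

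The 16 other genes among those 24 lowest were looked at after their values were seen. Pln was at the lowest place with -7.09, and the others were Kcnj5, Tbx20, Mybphl, Ryr2, Mylk3, Rnf207, Rpl3l, Nlrp10, Mov10l1, Gtsf1, Ankrd63, Pvalb, Kcng2, Slc16a5 and Ftcd. Pln encodes phospholamban, the ventricular counterpart of sarcolipin, and read 11598 and 69.2 in the labelled knockout, against 4601 and 463 in wild type. Mylk3 encodes the cardiac myosin light chain kinase, and read 4770 and 363 in the labelled knockout, against 1759 and 393 in wild type. Rpl3l, a ribosomal protein of striated muscle, departed from the Myh6 order in wild type, with 608 and 21.8 in the labelled knockout, against 167 and 395 in wild type.

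Genes with a profile most like Myh6 were ranked by the root mean square difference of centred log2 signals over the 4 arrays. Among genes outside the set, the closest was Kcnj5, a subunit of the atrial potassium channel opened by acetylcholine, at 0.24. It read 2536 and 29.0 in the labelled knockout, against 1007 and 509 in wild type. Mybphl, an atrial relative of the myosin-binding proteins, followed at 0.44, and Tbx20, a T-box factor of the heart, at 0.46. Nlrp10, Mov10l1, Pln, Ankrd63, Ryr2, Gm20740 and Gm15666 made up the 10, at up to 1.01. Among the members, Nppa was at 0.41, Gata4 at 0.47, Myl7 at 0.49 and Tnni3 at 0.65. Mybpc3 was at 1.01, Nppb at 1.13 and Nkx2-5 at 1.70, whereas Sln and Myl4 were at 2.32 and 2.50. With 4 arrays, many profiles can match by their order alone.

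Between genotypes no member passed. In the limma fit over 18193 genes, 0 had a Benjamini-Hochberg adjusted p under 0.05, or 0% of all genes, and the smallest adjusted p was 0.886. Unadjusted, 849 genes or 4.67% had a p under 0.05, among them 0 of the 10 members. Fitted log2 differences, labelled knockout minus wild type, were below 0 for 5 members and above 0 for 5, with a median of -0.0014 against -0.02 for all genes. Nppa had the largest in size, -1.65 (SE 1.91, limma, adjusted p = 0.911). Its mean signal was 8029 ± 11169 in the labelled knockout and 5351 ± 3361 in wild type (SD, n = 2 each), so means of signals and of log2 values differ in sign.

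For 6 of the 10 members, and for 60.6% of all genes, the SE was larger than the genotype difference. Myh6 averaged 8254 ± 11258 in the labelled knockout and 6378 ± 4492 in wild type (SD, n = 2 each), and its fitted log2 difference was -1.31 (SE 1.64). Mybpc3 averaged 4646 ± 6474 in the labelled knockout and 1363 ± 1582 in wild type (SD, n = 2 each), with a log2 difference of 0.13 and the widest SE of the set, 2.08. Myl4 and Sln were measured more tightly. Myl4 averaged 22356 ± 7167 in the labelled knockout and 16848 ± 2477 in wild type (SD, n = 2 each), and its log2 difference was 0.38 (SE 0.29). Sln averaged 8711 ± 1062 in the labelled knockout and 6401 ± 1469 in wild type (SD, n = 2 each), and its log2 difference was 0.46 (SE 0.23, limma, adjusted p = 0.886). The median SE over all genes was 0.30.

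**Figure D3:**
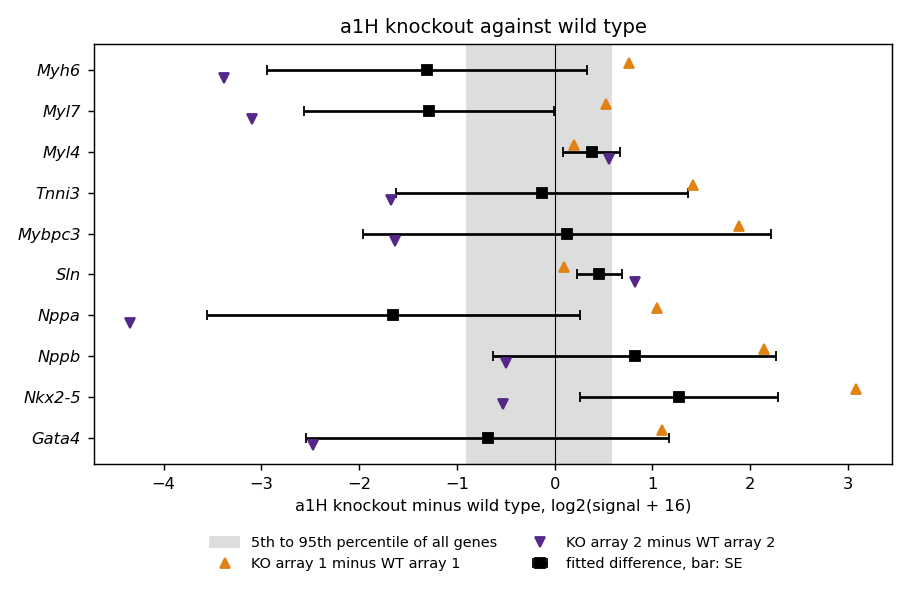
Squares with bars are fitted log2 differences, a1H knockout minus wild type, with their SE, triangles are the differences within each replicate number, and the grey band spans the 5th to 95th percentile of all genes. For Nppa the array 1 difference is 1.04 and the array 2 difference is -4.34.

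Between replicate numbers the genotype difference changed sign for 8 of the 10 genes, as it did for 40.6% of all genes. On the arrays numbered 1 all 10 genes were higher in the labelled knockout than in wild type, with a median log2 difference of 1.07 against -0.02 for all genes. On the arrays numbered 2, 8 were lower, with a median of -1.65 against -0.00095 for all genes. Nkx2-5 had 3.08 and -0.53, Nppb had 2.14 and -0.50, and Gata4 had 1.09 and -2.47 for numbers 1 and 2. Myl4, with 0.20 and 0.56, and Sln, with 0.10 and 0.82, were above 0 in both. At least 2-fold higher on array 1 of the labelled knockout were 6 members and 2.74% of all genes, and at least 2-fold lower on its array 2 were 6 members and 8.03% of all genes.

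Leaving out 1 array at a time moved the median difference of the members, most for the labelled knockout arrays. Without labelled knockout array 1, limma called 3 members (Nppa, Myl7 and Myh6), with log2 differences of -5.03, -3.54 and -4.16, and 136 or 0.748% of all genes. That setting rests on the array signals known when the members were chosen, and the lone labelled knockout array was assumed to vary like wild type, so the calls show only how much this array weighs. The median of the 10 genes was then -2.95. Without labelled knockout array 2 all 10 genes had differences above 0, with a median of 2.04, and none passed. Leaving out wild-type array 1 gave a median of 0.63 and leaving out wild-type array 2 gave -1.30, with 0 members passing in both.

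Other heart genes were followed in lists chosen by function, and no gene of any list passed between genotypes in either direction. Ventricular muscle genes ran with the members only in part. The full order of Myh6 was found in 1 of 8, and in 6.72% of all genes. Among the other heart lists, 5 of 12 transcription factors and 4 of 10 calcium-handling genes had it. So did 3 of 16 sarcomere genes shared with skeletal muscle and 2 of 10 other atrial and nodal genes. Of the natriuretic peptide processing and receptor genes, 1 of 6 had it. On the arrays numbered 2, labelled knockout minus wild type, the median log2 difference of the ventricular list was 0.14, against -1.65 for the members. It was 0.0089 for the other atrial and nodal genes and 0.23 for the shared sarcomere genes. The natriuretic peptide processing and receptor genes had 0.15, the calcium-handling genes -0.14 and the transcription factors -0.44. Of the 8 ventricular genes, 5 were at least 2-fold lower on array 2 of the labelled knockout than on its array 1, and 5 were so in wild type. Myl2, the regulatory light chain of the ventricle, read 18542 and 2424 in the labelled knockout, against 9963 and 1139 in wild type. Myl3, the ventricular and slow skeletal essential light chain, read 19498 and 3915 in the labelled knockout, against 11764 and 3852 in wild type. Myh7 read 16893 and 4760 in the labelled knockout, against 9097 and 4071 in wild type. These 3 genes did not share the full order of Myh6, since their lowest signals were on wild-type array 2. For Myl3 and Myh7 that rests on small log2 differences between the arrays numbered 2, of 0.02 and 0.22. Hey2, the ventricular gene with the full order, read 6584 and 2829 in the labelled knockout, against 4246 and 4016 in wild type.

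Sarcomere genes shared by cardiac and skeletal muscle varied far less. Of 16 measured, 4 were at least 2-fold lower on labelled knockout array 2 than on array 1 and 1 was so in wild type, with median log2 differences of -0.15 and -0.10. Actc1, cardiac alpha-actin that embryonic skeletal muscle also makes, read 22081 and 30141 in the labelled knockout, against 20810 and 26174 in wild type. Tnnt2, cardiac troponin T, read 22356 and 19280 in the labelled knockout, against 15070 and 13068 in wild type. In Tnnt2 both labelled knockout arrays were above both wild-type arrays, and the log2 difference of 0.56 (SE 0.22) did not pass (limma, adjusted p = 0.886). Tnnc1, troponin C of cardiac and slow muscle, had 17172 and 23843 in the labelled knockout, against 12748 and 15028 in wild type.

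Calcium-handling genes of heart muscle were mixed. Of 10 measured, 5 were at least 2-fold lower on labelled knockout array 2 than on array 1 and 2 were so in wild type. Ryr2, the calcium release channel of the heart, read 5787 and 342 in the labelled knockout, against 2243 and 790 in wild type. Casq2, a calcium store protein of cardiac and slow muscle, read 13803 and 14717 in the labelled knockout, against 11194 and 10264 in wild type. Atp2a2, the calcium pump that sarcolipin and phospholamban restrain and that many tissues make, read 13532 and 16624 in the labelled knockout, against 12586 and 15957 in wild type.

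Transcription factors of the heart were mixed too. Of 12 measured beside the members, 5 were at least 2-fold lower on labelled knockout array 2 than on array 1 and 2 were so in wild type. Tbx20 read 11078 and 229 in the labelled knockout, against 6210 and 1101 in wild type, in the order of Myh6. Mef2c, a factor of all muscle and other tissues, read 10021 and 12884 in the labelled knockout, against 11862 and 13671 in wild type. Isl1, a factor of heart precursors that neurons also make, read 5508 and 6872 in the labelled knockout, against 7320 and 6865 in wild type. Myocd, the SRF partner of heart and smooth muscle, read 5975 and 1141 in the labelled knockout, against 4083 and 3829 in wild type. It too had the order of Myh6, with a gap of only 1.07-fold between the wild-type arrays.

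Genes that process or receive natriuretic peptides did not all vary as Nppa and Nppb did. Corin, the protease of heart muscle that cleaves the atrial peptide precursor, read 2767 and 586 in the labelled knockout, against 1509 and 544 in wild type. Furin, a protease of most cells that cleaves the B-type precursor, read 8770 and 12143 in the labelled knockout, against 9052 and 10580 in wild type. Npr2, the receptor of C-type natriuretic peptide that acts in growing cartilage, read 2723 and 3020 in the labelled knockout, against 2362 and 2403 in wild type. Npr3, the clearance receptor, read 3508 and 1456 in the labelled knockout, against 2386 and 2375 in wild type. Npr1, named after its values were seen, read 157 and 64.9 in the labelled knockout, against 100 and 119 in wild type. Nppc, named likewise, read 246 and 257 in the labelled knockout, against 308 and 221 in wild type. Of this list of 6, 3 were at least 2-fold lower on labelled knockout array 2 than on array 1 and 1 was so in wild type.

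In the list of other atrial and nodal genes, 3 of 10 were at least 2-fold lower on array 2 in each genotype. Its brightest genes have roles outside the heart as well. Nr2f2, a nuclear receptor of atrial muscle, veins and mesenchyme, read 7185 and 8211 in the labelled knockout, against 8667 and 10756 in wild type. Tbx3, a factor of the conduction system that also patterns airway mesenchyme, read 4822 and 3503 in the labelled knockout, against 6434 and 4201 in wild type. Neither gene had the array order of Myh6. Kcnj5 and Mybphl, of the same list, did, with log2 differences of -5.83 and -5.32 between the labelled knockout arrays. Kcnj3, the partner subunit of Kcnj5 and named after its values were seen, read 2820 and 606 in the labelled knockout, against 2116 and 431 in wild type.

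**Figure D4:**
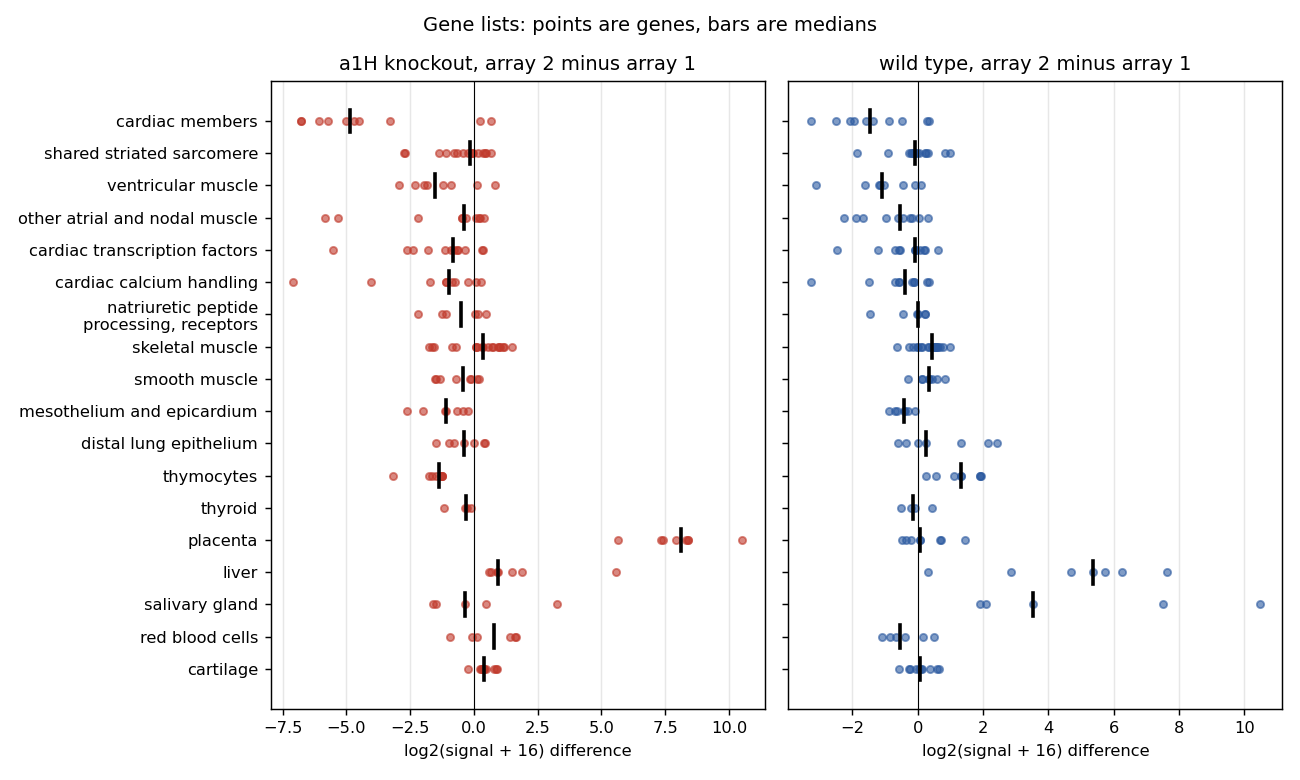
Points are genes of each list, placed by the log2(signal + 16) difference between array 2 and array 1 within a1H knockout (left) and wild type (right), with bars at list medians. The member median is -4.87 on the left and -1.47 on the right, and the placental list stands at 8.13 on the left.

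Skeletal muscle, which makes Myl4 and Sln as well, had a higher summed signal on array 2 of each genotype. Their summed signal over 19 genes was 179194 and 278981 in the labelled knockout, against 168870 and 244232 in wild type. The median log2 difference, array 2 minus array 1, was 0.34 in the labelled knockout and 0.42 in wild type. The order of Myh6 was found in 0 of 19 genes, and in 6.72% of all genes. Of the 19, 4 were at least 2-fold higher on labelled knockout array 2 than on array 1 and 3 at least 2-fold lower, namely Myh1, Myh2 and Myh4, chosen for this after their values were seen, with -1.56, -1.78 and -1.63. They encode fast skeletal myosin heavy chains. Mylpf, the fast skeletal regulatory light chain, read 26332 and 44281 in the labelled knockout, against 26705 and 40858 in wild type. Tnnc2, fast troponin C, read 16418 and 33804 in the labelled knockout, against 15368 and 26219 in wild type. Like Mylpf, the brighter Myl4 probe set was higher on array 2 within both genotypes, whereas the dimmer one was lower on array 2 in both. Sln was higher on array 2 in the labelled knockout and lower on it in wild type. How much of the Myl4 and Sln signal came from skeletal muscle was not tested.

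Markers of other tissues beside the heart also moved between arrays, and their part in the member values was not tested. All 7 measured genes of mesothelium and epicardium, the covering layers of the chest organs and heart, were lower on array 2 in both genotypes. Their summed signal was 12389 and 6691 in the labelled knockout, against 12911 and 10096 in wild type. Thymocyte genes, 8 measured, summed to 28256 and 10353 in the labelled knockout, against 4449 and 13437 in wild type, so the thymus list was lowest on wild-type array 1, where Myh6 was second highest. Smooth muscle genes, 8 measured, summed to 50401 and 44771 in the labelled knockout, against 44839 and 63728 in wild type. Genes of distal lung epithelium, 7 measured, summed to 9630 and 10292 in the labelled knockout, against 11216 and 13486 in wild type. Liver genes, 7 measured, summed to 2574 and 31703 in the labelled knockout, against 982 and 48430 in wild type. Without Ttr, left out after the values were seen, the other 6 summed to 2018 and 4628 in the labelled knockout, against 815 and 43746 in wild type. No probe set was at 0 on any array.

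Further lists gave the remaining context. Salivary gland genes, 5 measured, summed to 15451 and 8539 in the labelled knockout, against 1053 and 37705 in wild type. Thyroid genes, 4 measured, summed to 21212 and 16270 in the labelled knockout, against 22941 and 30038 in wild type. Genes of red blood cells, 6 measured, summed to 40162 and 48250 in the labelled knockout, against 39671 and 27764 in wild type. Cartilage genes, 10 measured, summed to 76975 and 112619 in the labelled knockout, against 99586 and 116514 in wild type. Of all these tissue lists, skeletal muscle, thymocyte, placental, liver, salivary, thyroid, distal lung, red blood cell and cartilage genes had 0 members in the order of Myh6. Smooth muscle had 1 and mesothelium and epicardium had 2. Of all genes, 6.72% had this order, so in lists this short a count of 0 or 1 lies near that share.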

How the data were processed

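Trizol-extracted RNA was amplified by SPIA (Ovation Pico) and biotin-labelled, per the labels' protocols. The authors deposited linear MAS5 intensity values, per the submitters' processing notes. MAS5 settings were not stated. All 4 arrays had nearly the same 2% trimmed mean (1500), so they looked scaled. MAS5 is noisy for dim probe sets, and the amplification can favour 3' ends.

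Of 45101 probe sets, 64 were controls, 34945 had exactly 1 gene in the platform annotation, 932 had several and 9160 had none listed. Symbols of 34741 were updated through gene identifiers of a RefSeq table (GRCm38.p6). The probe set of highest average log2(signal + 16) stood for each gene, which left 18193 genes, with no level filter. Log2(signal + 16) understates differences of dim genes. Genotype was tested with limma 3.58.1 in R 4.3.3 (lmFit, eBayes with intensity trend, all 4 arrays, genotype as the only term). Benjamini-Hochberg adjustment ran over all genes, with a threshold of 0.05. The fit was checked on simulated data with noise independent between genes. Those data lack the shared shifts of tissue markers between arrays of a genotype, so the check does not cover them. Percentiles are ranks among 45037 non-control probe sets of an array. Members, gene lists and motifs were chosen with earlier results of these data known. Named genes are the 10 members, up to 4 genes of each list with the highest mean log2 signal, the 10 genes most like Myh6, and Cacna1h. Other genes were named after their values were seen. Figures were drawn with matplotlib 3.10.9. The pseudocount, a level filter, normalisation, centring, the mean of all probe sets, a replicate block and leaving out each array were tried as alternatives.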

Additional observations from a re-analysis of the deposited data

How the results depend on the processing

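The count of genes passing between genotypes was 0 with the pseudocount at 1 or 64, a filter at the median level (11694 genes, 8 of the 10 members), quantile normalisation, centring of arrays, the mean of all probe sets and the replicate block, and it ranged from 0 to 136 when each array was left out, with 136 without labelled knockout replicate 1 and 3 without labelled knockout replicate 2. The median log2 difference of the members ranged from -2.95 to 2.04 over the arrays left out, and from -0.06 to 0.23 over the other alternatives. Centring moved the median of all genes to 0.21, against -0.02. The difference of Tnni3 turned to 0.071 with quantile normalisation and to 0.10 with centring, relative to medians of all genes of 0.07 and 0.21, and the cause was not tested. Over the arrays left out, the differences ranged from -4.16 to 1.55 for Myh6, -3.54 to 0.97 for Myl7, -2.65 to 2.38 for Tnni3, -3.26 to 3.52 for Mybpc3, -5.03 to 1.73 for Nppa, -1.54 to 3.18 for Nppb, -0.36 to 2.91 for Nkx2-5 and -3.72 to 2.35 for Gata4, and stayed above 0 for Myl4 and Sln. Genes past 2-fold between the labelled knockout arrays numbered 2252, with 1095 at a pseudocount of 64 and 581 above the median level. Between the wild-type arrays they numbered 1542, with 591 and 212. Fewer dim genes pass in both by construction. With the replicate number as a block the member median was -0.0014 and 0 members passed, and the deviations of same-numbered arrays correlated at 0.15 over genes. The labels do not say that the number marks a batch.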
